A study of Homo sapiens with 12 samples.

Results

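The genes described here are 33 named genes of the p53 pathway, measured in 2 Ewing sarcoma cell lines treated with THZ531. They comprise regulators that act back on p53 and transcripts that p53 is known to activate. A gene was used when an array entry was annotated to it alone and carried its 12 values with 3 decimals, which held for 29 of the 33, out of 16937 genes in all. Of the others, CDKN1A, which encodes the cell cycle inhibitor p21, and PIDD1, which encodes a death-domain adaptor, had entries with at most 2 decimals, and in entries of that kind the array nearest to each array belonged to another group for all 12 arrays. BTG2, an antiproliferative gene, and FDXR, the ferredoxin reductase gene, were not analysed here.

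The series followed the effect of THZ531 on transcription in TC32 and A673, cell lines of Ewing sarcoma, a tumour of bone and soft tissue in which the EWS/FLI fusion protein drives growth. THZ531 binds covalently to CDK12 and CDK13 and inhibits these kinases, whose substrate is the tail of elongating RNA polymerase II. The groups were TC32 at 500 nM, TC32 at 100 nM, TC32 with the solvent DMSO, A673 at 500 nM, A673 at 100 nM and A673 with DMSO, each with 2 arrays after 6 hours of treatment. The sample labels call the compound THZ_5_31_1, and its dose label of 100 nM on the DMSO samples was disregarded. The labels call the 2 arrays of a group biological replicates and give no more on their origin. The p-values therefore reach no further than these samples. As deposited they weigh a variance pooled over genes, not the spread of each gene.

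The protein p53 is a transcription factor that is held at a low level by the ubiquitin ligase MDM2 and its partner MDM4. Stress signals from DNA damage and from disturbed transcription release it, after which it binds paired half-sites near its target genes and raises genes of growth arrest, DNA repair, metabolism and cell death. MDM2 and PPM1D are themselves targets, which closes a negative feedback loop, and several of the arrest genes, among them GADD45A, GADD45B and BTG1, are also activated by stress routes that do not need p53.

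Values are log2 signals as the authors deposited them, and every difference is on that log2 scale. Genes were tested when their mean over the 12 arrays reached 5.94, the 40th percentile, which left 10162 genes and 26 of the 29. The remaining 3, SPATA18, TP53I3 and TP53I11, lay below it. For TC32 the medians over the tested genes were 8.08 and 7.94 on the DMSO arrays, 7.72 and 7.72 at 100 nM, then 6.87 and 6.88 at 500 nM, and 8.87 and 8.78, 8.16 and 8.11, and 7.98 and 7.43 in A673 in the same order. Because the medians of treated arrays were lower, each difference is also given relative to the array medians, that is, on centred arrays. There each array's own median, taken over all kept genes, was subtracted. Not every gene shifted with the median. Centring removed shifts of -0.79 at 500 nM and -0.21 at 100 nM in TC32, and of -0.83 and -0.62 in A673. The median SD between the 2 arrays of a group was 0.37 in A673 at 500 nM and between 0.06 and 0.11 in the other groups. Of 10 Ewing sarcoma markers 8 were kept, all 8 above 5.94 with DMSO in both lines. With DMSO, the number above that level in TC32 and in A673 was 2 and 3 of 4 haematopoietic markers kept, 1 and 1 of 4 epithelial markers, 3 and 3 of 5 endothelial and fibroblast markers, and 2 and 3 of 3 neuronal markers, and their part in the results was not tested. The mean summed linear signal of the neuronal markers in A673 was 617 with DMSO, 400.1 at 100 nM and 416 at 500 nM, and in TC32 it was 259, 268 and 206. The sums of the other marker sets in A673 were also lower at both doses than with DMSO. Endothelial and fibroblast markers summed there to 524, 333 and 346, and Ewing sarcoma markers to 35365, 26126 and 23805.

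At 500 nM THZ531, 4 arrest genes rose in both lines while most other members fell. The risers were PLK2, GADD45A, GADD45B and BTG1. POLH, PPM1D, AEN, FAS and MDM2 had fitted falls of between 1.82 and 2.26 in TC32 and between 1.76 and 2.05 in A673. In TC32 the 500 nM means of all of these but FAS lay under 5.94, the minimum mean for testing, as did that of POLH in A673. These falls are therefore counted only as the lower bound given with each gene. In TC32 at 100 nM the picture differed, since PPM1D, SESN1, SESN2 and ZMAT3 joined the 4 arrest genes above DMSO. Relative to the array medians, PPM1D, SESN2 and ZMAT3 were higher in A673 at 100 nM too. Of these additions, only SESN1 had a 100 nM effect that was called different between the lines. By limma with Benjamini-Hochberg adjustment over all tested genes, 19 of the 26 members fell and 4 rose in TC32 at 500 nM, where 62.9% of all tested genes were lower and 0.945% higher. In A673 at 500 nM 20 fell and 4 rose, against 82.5% lower and 0.945% higher among all tested genes. The median member changed by -0.92 in TC32 and -1.20 in A673, beside -0.64 and -0.73 over all tested genes. In these bulk RNA samples, fewer cells of a type and less RNA per cell cannot be told apart.

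In TC32 at 100 nM 8 members rose and 3 fell, with a median of 0.24 beside -0.07 over all tested genes, of which 5.56% were higher and 20.9% lower. In A673 at 100 nM 3 rose and 15 fell, with a median of -0.54 beside -0.52, and 1.32% of all tested genes were higher and 58.7% lower. The 100 nM and 500 nM comparisons of a line share their DMSO arrays. Relative to the array medians, 7 members were higher and 11 lower in TC32 at 500 nM (41.3% and 30.7% of all tested genes), and 6 were higher and 13 lower in A673 (29.6% and 27.4%). On that scale 14 were higher and 3 lower in TC32 at 100 nM (30.5% and 21.2%), and 8 were higher and 7 lower in A673 (24.5% and 17%). The counts for TC32 at 100 nM were 13 higher and 6 lower without either A673 array at 500 nM, the pair with the widest spread. The count lower in A673 at 100 nM was 7 without replicate 2 of the A673 100 nM arrays. That count on centred arrays was 2 without replicate 2 of DMSO or replicate 2 of 100 nM, and 4 without replicate 1 of 100 nM.

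**Figure D1:**
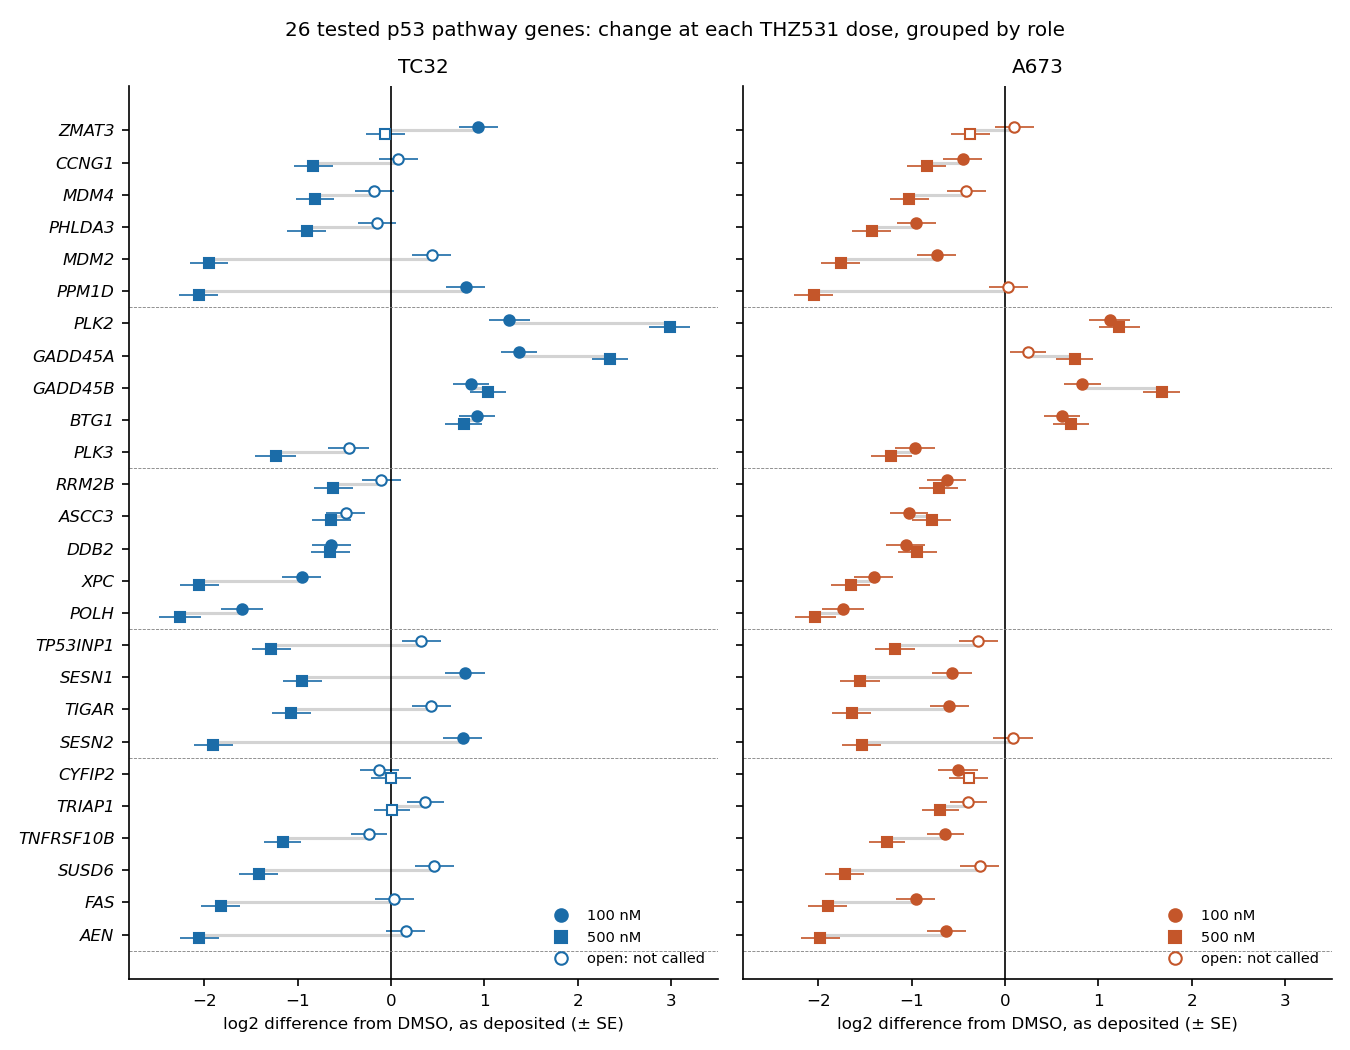
Log2 difference from DMSO (horizontal axis, as deposited, with the SE) for the 26 tested members in TC32 (left) and A673 (right), in role groups separated by dashed lines: regulators of p53, arrest, DNA repair, metabolism and stress, and cell death. Circles are 100 nM, squares 500 nM, and open symbols did not pass the test. PLK2, GADD45A, GADD45B and BTG1 lie right of 0 at both doses in both lines, while PPM1D, SESN1 and SESN2 in TC32 lie right of 0 at 100 nM and left of it at 500 nM.

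Of the 5 arrest genes tested, 4 rose and 1 fell at 500 nM in each line, on both scales. As deposited 0.945% of all tested genes rose in each line, and 62.9% fell in TC32 and 82.5% in A673. On centred arrays 41.3% were higher and 30.7% lower in TC32, and 29.6% and 27.4% in A673. PLK2 encodes polo-like kinase 2, which acts in the G1 phase and in checkpoint control. On the 2 TC32 arrays of each group it read 4.54 and 4.92 with DMSO, 6.03 and 5.97 at 100 nM, then 7.69 and 7.74 at 500 nM. On the A673 arrays it read 5.85 and 6.16, 7.05 and 7.19, and 7.55 and 6.90 in the same order. The treated arrays lay above the DMSO arrays in both lines, and in A673 the arrays of the 2 doses overlapped. PLK2 rose by 2.98 ± 0.22 at 500 nM in TC32 (SE, n = 2 each, adjusted p = 8.43e-41 by limma). Here and below, the as-deposited SE rests on a variance pooled over genes of like signal and all 12 arrays. It does not measure the gene's own spread. Since the DMSO mean of PLK2 lay under 5.94, PLK2 was counted as at least 3.41-fold higher. In A673 it rose by 1.22 ± 0.22 (adjusted p = 7.59e-08), or 2.34-fold. At 100 nM the rises were 1.27 in TC32, at least 1.04-fold, and 1.12 in A673.

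GADD45A, a growth arrest and DNA damage-inducible gene whose product binds stress kinases and cell cycle proteins, read 8.56 and 8.55 with DMSO, 9.90 and 9.96 at 100 nM, then 10.9 and 10.9 at 500 nM in TC32. In A673 it read 10.57 and 10.49, 10.77 and 10.79, and 11.56 and 10.995. Both doses lay above DMSO in both lines, and the DMSO arrays of A673 lay between the 100 nM and 500 nM arrays of TC32. The rise at 500 nM was 2.34 ± 0.19 in TC32 (adjusted p = 2.40e-32 by limma), or 5.08-fold, and 0.74 ± 0.19 in A673 (adjusted p = 2.58e-04). At 100 nM it was 1.37 in TC32 and 0.25 in A673, where it did not pass the test (adjusted p = 0.242, limma). It passed without either A673 array at 500 nM (0.00938 and 0.00932), and on centred arrays the difference was 0.87 (adjusted p = 1.55e-06).

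GADD45B, its paralogue, gave 9.08 and 8.84 with DMSO, 9.73 and 9.91 at 100 nM, then 9.96 and 10.04 at 500 nM in TC32, and 9.58 and 9.99, 10.66 and 10.56, and 11.71 and 11.21 in A673. It rose at each dose in each line, with 500 nM differences of 1.04 ± 0.20 in TC32 and 1.68 ± 0.20 in A673 (adjusted p = 4.42e-07 and 1.38e-16, limma) and 100 nM differences of 0.86 and 0.83. BTG1, an antiproliferative cofactor of the mRNA deadenylation machinery, gave 9.82 and 9.58, 10.65 and 10.59, and 10.58 and 10.37 in TC32, and 9.79 and 9.60, 10.34 and 10.27, and 10.67 and 10.13 in A673. Its treated arrays lay above DMSO in both lines, by 0.78 at 500 nM and 0.92 at 100 nM in TC32 and by 0.71 and 0.61 in A673, all past the test. The BTG1 call in A673 at 100 nM was lost without DMSO replicate 2 (0.52, adjusted p = 0.0728) or the first 100 nM array (0.58, adjusted p = 0.0654). PLK3, which encodes another polo-like kinase, went the other way and fell by 1.23 in TC32 and by 1.22 in A673 at 500 nM.

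**Figure D2:**
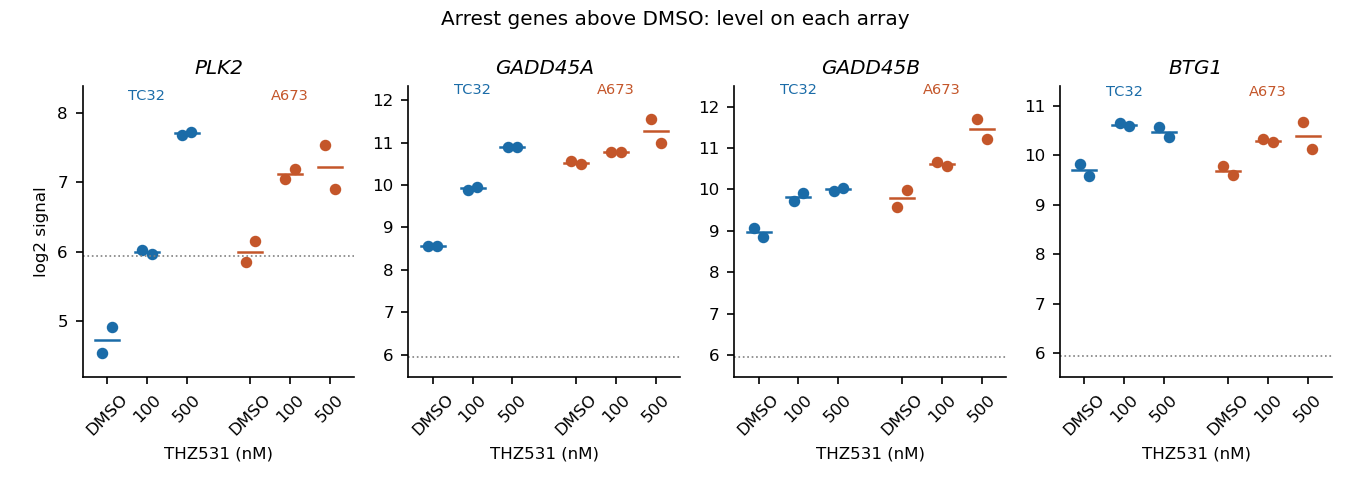
Log2 signal (vertical axis) of the 4 arrest genes that rose, on each of the 2 arrays per group (points) with the group mean (bar), for DMSO, 100 nM and 500 nM THZ531 in TC32 and A673. The dotted line marks 5.94, the minimum mean for testing. PLK2 in TC32 starts under that line with DMSO and ends at 7.69 and 7.74, and GADD45A in A673 already reads 10.57 and 10.49 with DMSO.

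The 250 bases before the RefSeq start are shown for 3 of the 4 risers because they rose together and hold 3 kinds of short motif among them, while GADD45A had no entry. They are written from 5′ to 3′ on the gene's strand in the build GRCh38.p14, with matches in capitals to the p53 half-site, to TGACG (read as CGTCA on the other strand) and to TATAAA, each searched on both strands.
PLK2, chr5:58460087-58460336, minus strand: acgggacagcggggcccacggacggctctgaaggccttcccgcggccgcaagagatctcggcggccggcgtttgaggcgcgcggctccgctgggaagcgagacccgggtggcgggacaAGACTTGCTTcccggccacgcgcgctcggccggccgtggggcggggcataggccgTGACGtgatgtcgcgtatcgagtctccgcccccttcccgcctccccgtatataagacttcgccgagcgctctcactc
GADD45B, chr19:2475877-2476126, plus strand: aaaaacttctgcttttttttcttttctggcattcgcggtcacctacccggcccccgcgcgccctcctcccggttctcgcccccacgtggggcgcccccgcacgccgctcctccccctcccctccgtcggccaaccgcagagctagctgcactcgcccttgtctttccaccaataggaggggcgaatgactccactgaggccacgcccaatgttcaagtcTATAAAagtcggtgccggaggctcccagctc
BTG1, chr12:92145847-92146096, minus strand: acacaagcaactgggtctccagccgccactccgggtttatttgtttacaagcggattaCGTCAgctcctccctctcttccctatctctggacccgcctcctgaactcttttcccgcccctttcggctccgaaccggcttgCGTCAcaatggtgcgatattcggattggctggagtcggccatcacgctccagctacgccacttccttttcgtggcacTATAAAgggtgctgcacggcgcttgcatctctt
A p53 half-site spans bases 132 to 123 before the PLK2 start, and TGACG bases 77 to 73. TATAAA starts 31 bases before the GADD45B start and 33 before the BTG1 start, and BTG1 also holds TGACG at bases 192 to 188 and 110 to 106. Among the 23 members with an entry the p53 half-site occurred in 2 (8.7%), TGACG in 8 (34.8%), TATAAA in 2 (8.7%) and the CArG box in 0 (0%), against 5.53%, 21.7%, 11.1% and 1.14% of 27305 promoters of that length. A match is only an occurrence of these letters in this window.

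Among the 6 members grouped as regulators of p53 and its feedback, 5 fell and ZMAT3 did not pass the test at 500 nM in each line, whereas in TC32 at 100 nM PPM1D and ZMAT3 rose. Over all tested genes 62.9% fell in TC32 and 82.5% in A673 at 500 nM, and 5.56% rose in TC32 at 100 nM. On centred arrays at 500 nM 2 of the 6 were lower in TC32 and 3 in A673. PPM1D encodes the phosphatase Wip1, which removes activating phosphates from p53 and the checkpoint kinases. Its signal was 7.76 and 7.68 with DMSO, 8.58 and 8.45 at 100 nM, then 5.31 and 6.01 at 500 nM in TC32. The A673 signals were 8.68 and 8.84, 8.77 and 8.82, and 6.80 and 6.62. In TC32 the 100 nM arrays were the highest and the 500 nM arrays the lowest, without overlap, while in A673 the 100 nM and DMSO arrays overlapped. PPM1D was 0.80 ± 0.21 higher at 100 nM in TC32 (adjusted p = 8.40e-04, limma) and 0.04 different in A673 (adjusted p = 0.874), where it was higher relative to the array medians (0.66, adjusted p = 0.00431). At 500 nM it fell by 2.06 in TC32, where the mean passed under 5.94 and the fall counts as at least 3.42-fold, and by 2.05 in A673 (4.13-fold). Its 250 upstream bases are shown because they hold 2 overlapping TGACG matches, at bases 61 to 57 and, on the other strand, 58 to 54.
PPM1D, chr17:60599943-60600192, plus strand: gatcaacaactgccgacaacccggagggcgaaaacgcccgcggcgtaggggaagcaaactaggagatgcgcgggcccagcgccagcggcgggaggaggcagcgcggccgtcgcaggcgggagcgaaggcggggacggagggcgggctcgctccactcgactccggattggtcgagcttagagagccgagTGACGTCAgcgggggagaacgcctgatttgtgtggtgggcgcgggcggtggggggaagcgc

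MDM2, the ubiquitin ligase that degrades p53 and is one of its targets, read 7.43 and 7.55 with DMSO, 7.98 and 7.87 at 100 nM, then 5.37 and 5.72 at 500 nM in TC32. In A673 the readings were 8.62 and 8.75, 8.03 and 7.88, and 7.32 and 6.53. The order of the TC32 groups was that of PPM1D, whereas in A673 both doses lay under DMSO. At 500 nM MDM2 fell by 1.95 ± 0.21 in TC32, at least 2.93-fold, and by 1.76 ± 0.21 in A673 (adjusted p = 7.73e-20 and 2.71e-16, limma). The 100 nM difference in TC32 was 0.44 (adjusted p = 0.113, limma), called without either A673 500 nM array (0.00969 and 0.00958) and on centred arrays (0.64, adjusted p = 0.00104). In A673 at 100 nM MDM2 fell by 0.73, a call lost without 100 nM replicate 2 (-0.65, adjusted p = 0.0518), and was at -0.11 relative to the array medians.

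ZMAT3, an RNA-binding zinc finger gene of the pathway, rose in TC32 at 100 nM and was not called at 500 nM in either line. In TC32 it read 7.97 and 7.82 with DMSO, 8.79 and 8.88 at 100 nM, then 7.85 and 7.82 at 500 nM, and in A673 7.63 and 7.46, 7.72 and 7.58, and 7.45 and 6.90. The 100 nM arrays of TC32 stood clear of DMSO, 0.93 ± 0.21 higher (adjusted p = 6.57e-05, limma), and those of A673 overlapped it (0.10, or 0.72 and past the test relative to the array medians). At 500 nM it was at -0.06 in TC32 and -0.37 in A673, and the A673 difference was called without 500 nM replicate 1 (-0.65, adjusted p = 1.91e-04). On centred arrays ZMAT3 was higher at 500 nM in both lines, at 0.73 and 0.46. The other regulators fell at 500 nM in TC32 and A673, MDM4 by 0.81 and 1.02, PHLDA3, which restrains the kinase AKT, by 0.90 and 1.42, and CCNG1, the cyclin G1 gene, by 0.83 and 0.84. The CCNG1 call in TC32 was lost without 500 nM replicate 1 (-0.58, adjusted p = 0.0622). Relative to the array medians MDM4 (-0.02 and -0.19) and CCNG1 (-0.04 and -0.0035) did not pass the test in either line, nor did PHLDA3 in TC32 (-0.11).

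All 5 members of DNA repair and nucleotide supply fell at 500 nM in both lines, and none was higher than DMSO at 100 nM by limma (0 at an unadjusted p under 0.05 too). The share of all tested genes that fell was 62.9% in TC32 and 82.5% in A673, and on centred arrays 2 of the 5 were lower in each line. POLH, the translesion polymerase eta, was already low at 100 nM. It read 7.46 and 7.26 with DMSO, 5.96 and 5.58 at 100 nM, then 5.22 and 4.99 at 500 nM in TC32, and 7.54 and 7.38, 5.83 and 5.61, and 5.57 and 5.28 in A673. The treated arrays of both lines lay under DMSO without overlap, and all 4 treated group means were under 5.94. The fitted differences at 100 nM were -1.59 in TC32 and -1.74 in A673, and at 500 nM -2.26 and -2.03, which count as falls of at least 2.67-fold in TC32 and 2.85-fold in A673 at either dose.

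XPC, which recognises damage in nucleotide excision repair, fell in steps in TC32, by 0.95 at 100 nM and by 2.05 at 500 nM, with readings of 8.86 and 8.73 with DMSO, 7.81 and 7.88 at 100 nM, then 6.79 and 6.71 at 500 nM. In A673 the falls were 1.41 and 1.65, with 9.85 and 9.73, 8.40 and 8.37, and 8.49 and 7.79, so that the doses overlapped. DDB2, which works beside XPC, fell by about as much at both doses, by 0.64 and 0.65 in TC32 and by 1.06 and 0.94 in A673. On centred arrays DDB2 was lower at 100 nM (-0.43 and -0.44), and did not pass the test at 500 nM, where its TC32 value was 0.14 and its A673 value -0.11. The TC32 call of DDB2 was lost at 100 nM without any one of the 4 TC32 arrays compared (adjusted p between 0.0502 and 0.182), and at 500 nM without replicate 1 of DMSO or replicate 2 of 500 nM (0.0532 and 0.0509).

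RRM2B, a ribonucleotide reductase subunit that p53 can induce, fell by 0.62 in TC32 and by 0.71 in A673 at 500 nM, and ASCC3, a helicase of alkylation repair, by 0.64 and 0.78. These falls were no larger than the shift of the arrays, and relative to the array medians RRM2B was at 0.18 and 0.12 and ASCC3 at 0.15 and 0.05, none of them past the test. In TC32 the RRM2B call was lost without replicate 1 of DMSO or replicate 2 of 500 nM (adjusted p = 0.0514 and 0.0743 by limma), and the ASCC3 call without replicate 1 of DMSO (0.0740). In A673 at 100 nM both fell, RRM2B by 0.62 and ASCC3 by 1.03, and the RRM2B call was lost without replicate 1 of DMSO (0.0917) or replicate 2 of 100 nM (0.106).

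The 4 tested members of metabolism and stress fell at 500 nM in both lines, and 2 of them, SESN1 and SESN2, rose in TC32 at 100 nM. At 500 nM 62.9% of all tested genes fell in TC32 and 82.5% in A673, and on centred arrays 2 of the 4 were lower in TC32 and 3 in A673. In TC32 at 100 nM 5.56% of all tested genes rose. The sestrins encoded by these paralogues sense amino acids and restrain mTORC1. SESN2 read 6.95 and 6.91 with DMSO, 7.70 and 7.69 at 100 nM, then 5.05 and 5.001 at 500 nM in TC32, and 8.18 and 7.84, 8.08 and 8.11, and 6.56 and 6.39 in A673. The TC32 groups did not overlap, and in A673 the 100 nM arrays lay between the DMSO arrays. SESN2 was 0.77 ± 0.21 higher at 100 nM in TC32 (adjusted p = 0.00178, limma) and 0.09 different in A673, where it was higher relative to the array medians (0.71, adjusted p = 8.50e-05). At 500 nM it fell by 1.90 in TC32, at least 1.98-fold, and by 1.53 in A673 (2.89-fold).

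SESN1 read 7.37 and 7.30 with DMSO, 8.14 and 8.12 at 100 nM, then 6.26 and 6.52 at 500 nM in TC32, the same order of groups as SESN2. In A673 it read 7.38 and 6.99, 6.60 and 6.64, and 6.02 and 5.25, declining with dose. At 100 nM it rose by 0.79 ± 0.21 in TC32 (adjusted p = 0.00130, limma) and fell by 0.57 in A673 (adjusted p = 0.0160), where it was at 0.05 relative to the array medians. The A673 call was lost without replicate 1 of DMSO (-0.38, adjusted p = 0.258) and without either 100 nM array (0.0978 and 0.0825). At 500 nM SESN1 fell by 0.95 in TC32 and by 1.55 in A673, where the fall counts as at least 2.36-fold.

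TIGAR, a phosphatase that lowers glycolytic flux, read 7.37 and 7.39 with DMSO, 8.02 and 7.61 at 100 nM, then 6.07 and 6.56 at 500 nM in TC32, and 8.37 and 8.65, 7.96 and 7.87, and 6.99 and 6.75 in A673. Its 100 nM arrays stood above DMSO in TC32 and below it in A673. The TC32 difference of 0.43 did not pass the test (adjusted p = 0.117, limma), except without either A673 500 nM array (0.0309 and 0.0316). In A673 it fell by 0.60 at 100 nM, where it was at 0.02 relative to the array medians, and that call was lost without replicate 2 of DMSO (0.125), replicate 1 of 100 nM (0.0512) or replicate 2 of 100 nM (0.100). At 500 nM TIGAR fell by 1.07 in TC32 and by 1.64 in A673. After centring, the 500 nM differences of SESN1 (-0.15) and TIGAR (-0.27) in TC32 did not pass the test, while TIGAR was higher there at 100 nM (0.64).

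TP53INP1, a stress gene that acts in autophagy and with p53 itself, differed most between the lines with DMSO and read 8.69 and 8.78 without THZ531, 8.99 and 9.13 at 100 nM, then 7.44 and 7.46 at 500 nM in TC32. In A673 its readings were 6.33 and 6.57, 6.26 and 6.06, and 5.33 and 5.21. It fell by 1.28 at 500 nM in TC32 and by 1.18 in A673, at least 1.42-fold there. The 100 nM differences of 0.33 and -0.29 did not pass the test (adjusted p = 0.286 and 0.209, limma), though each did without either A673 500 nM array, with adjusted p of at most 0.0452. Centring made TP53INP1 higher in TC32 at 100 nM (0.53), and its 500 nM difference in A673 (-0.34) did not pass the test.

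**Figure D3:**
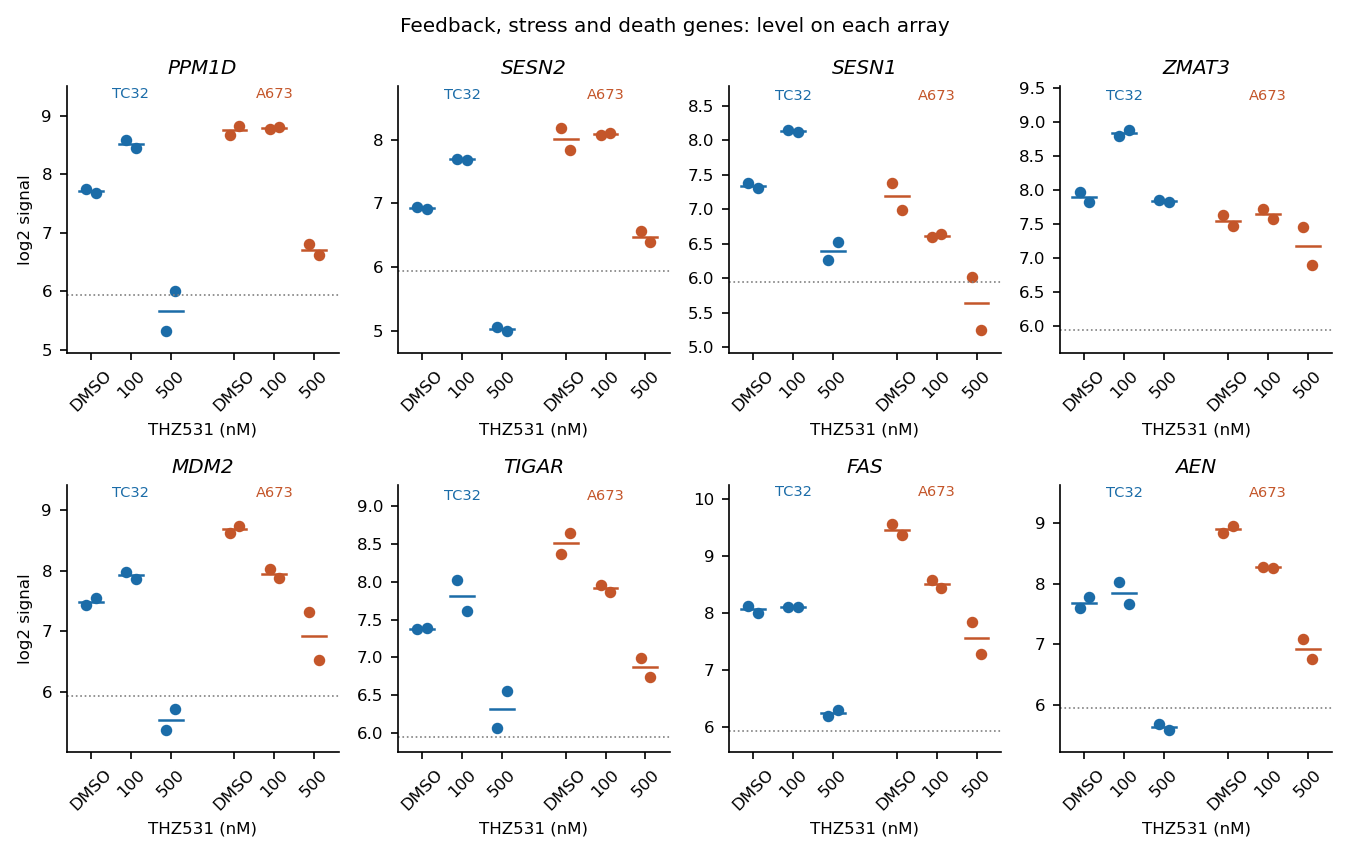
Log2 signal (vertical axis) of 8 members of regulation, stress and cell death on each of the 2 arrays per group (points) with the group mean (bar), for DMSO, 100 nM and 500 nM THZ531 in TC32 and A673. The dotted line marks 5.94. In TC32 the 100 nM arrays of PPM1D, SESN2, SESN1 and ZMAT3 stand above both DMSO arrays, and the 500 nM arrays of all but ZMAT3 stand below them.

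Of the 6 tested members of cell death and survival, 4 fell in TC32 and 5 in A673 at 500 nM, near the 62.9% and 82.5% of all tested genes, and by limma 0 rose at either dose in either line (1 at an unadjusted p under 0.05 in TC32 at 100 nM, and 0 in the other comparisons). On centred arrays at 500 nM 4 of the 6 were lower in each line, and 2 were higher in TC32 and 1 in A673. AEN encodes an apoptosis-enhancing nuclease. It read 7.60 and 7.78 with DMSO, 8.03 and 7.66 at 100 nM, then 5.69 and 5.59 at 500 nM in TC32, and 8.84 and 8.96, 8.28 and 8.26, and 7.09 and 6.75 in A673. Its DMSO and 100 nM arrays overlapped in TC32 and were separate in A673. At 500 nM AEN fell by 2.05 in TC32, at least 3.35-fold, and by 1.98 in A673 (3.94-fold). At 100 nM it was at 0.16 in TC32 and fell by 0.63 in A673, where it was at -0.01 relative to the array medians and the call was lost without replicate 2 of DMSO (0.0570) or either 100 nM array (0.0512 and 0.0672). Its upstream bases are shown because AEN is the other member whose window holds a p53 half-site, at bases 34 to 25 before the start.
AEN, chr15:88621090-88621339, plus strand: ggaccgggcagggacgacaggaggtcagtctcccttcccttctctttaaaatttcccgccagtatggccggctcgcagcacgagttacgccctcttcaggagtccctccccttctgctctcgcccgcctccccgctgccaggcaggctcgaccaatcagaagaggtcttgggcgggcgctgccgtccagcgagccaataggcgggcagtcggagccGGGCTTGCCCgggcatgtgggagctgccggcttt

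FAS, the death receptor of the Fas ligand, read 8.14 and 8.01 with DMSO, 8.11 and 8.12 at 100 nM, then 6.19 and 6.31 at 500 nM in TC32. In A673 it read 9.57 and 9.37, 8.58 and 8.45, and 7.86 and 7.29. In TC32 the 100 nM arrays lay between the DMSO arrays, and in A673 each dose lay under the one before. FAS fell by 1.82 ± 0.21 at 500 nM in TC32 and by 1.90 ± 0.21 in A673 (adjusted p = 1.45e-17 and 9.97e-19, limma). At 100 nM it was at 0.04 in TC32 (adjusted p = 0.934) and fell by 0.96 in A673.

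TNFRSF10B, the death receptor DR5, fell by 1.16 in TC32 and by 1.26 in A673 at 500 nM, and SUSD6, a membrane protein gene, by 1.42 and 1.71, both also relative to the array medians. TRIAP1, which supports survival by acting in mitochondrial lipid transfer, was at 0.01 in TC32 and fell by 0.69 in A673, and CYFIP2, a cytoskeletal regulator, was at 0.00 in TC32 and -0.39 in A673. Both were higher in TC32 relative to the array medians, TRIAP1 at 0.80 and CYFIP2 at 0.79, and in A673 they were at 0.14 and 0.44, of which the CYFIP2 value passed the test. At 100 nM in TC32, AEN (0.36), TRIAP1 (0.57) and SUSD6 (0.67) were higher relative to the array medians, and not as deposited. The as-deposited difference of CYFIP2 in A673 was called without 500 nM replicate 1 (-0.72, adjusted p = 3.81e-04). The untested members lay low throughout. SPATA18 averaged 5.65 and 4.94 with DMSO in TC32 and A673, TP53I3 6.02 and 5.87, and TP53I11 5.24 and 5.598. Over all 6 groups the means lay between 4.66 and 5.65 for SPATA18, between 5.57 and 6.02 for TP53I3 and between 4.85 and 5.598 for TP53I11.

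Between the doses, 500 nM lay under 100 nM for most members in TC32. There 18 fell and 2, PLK2 (1.71) and GADD45A (0.97), rose, where 55.5% of all tested genes were lower and 1.1% higher. PPM1D fell by 2.86 between the doses, SESN2 by 2.67, MDM2 by 2.38 and AEN by 2.21, the largest of these falls as fitted, and for all 4 the 500 nM mean lay under 5.94. In A673 11 fell and 2, GADD45B (0.85) and GADD45A (0.50), rose, against 26.6% and 0.886%. The GADD45A call was lost without any one of 11 of the 12 arrays, with adjusted p between 0.0598 and 0.227, and the A673 count of 11 became 18 without replicate 1 of the 500 nM arrays. Without replicate 2 of those arrays 6 members rose. After centring 12 were lower and 7 higher in TC32 (29.7% and 29.1% of all tested genes), and 11 lower and 5 higher in A673 (25.1% and 10.5%).

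The lines were also compared with DMSO, TC32 against A673. Most genes read lower in TC32, with a shift between the arrays of -0.69. By limma 13 of 26 were lower and 1 higher, against 77.4% and 5.12% of all tested genes, with a median of -0.45 beside -0.81. The one higher was TP53INP1, at 2.28 ± 0.21 (adjusted p = 2.98e-26), 4.87-fold. The largest fitted differences below A673 were those of GADD45A (-1.98), FAS (-1.40), PLK2 (-1.27), AEN (-1.21) and MDM2 (-1.19). PLK2 lay under 5.94 in TC32 and averaged 6.00 in A673, so its difference counts only from 5.94 up to that mean. Relative to the array medians 12 were higher and 9 lower (21.5% and 33.7% of all tested genes), with TP53INP1 at 2.98, ZMAT3 at 1.05 and CYFIP2 at 1.01 against GADD45A at -1.28 and FAS at -0.70. The as-deposited count of 1 higher became 4 without either A673 array at 500 nM, and the relative count of 9 lower became 4 without replicate 2 of the A673 DMSO arrays and 3 without replicate 1 of the TC32 DMSO arrays.

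**Figure D4:**
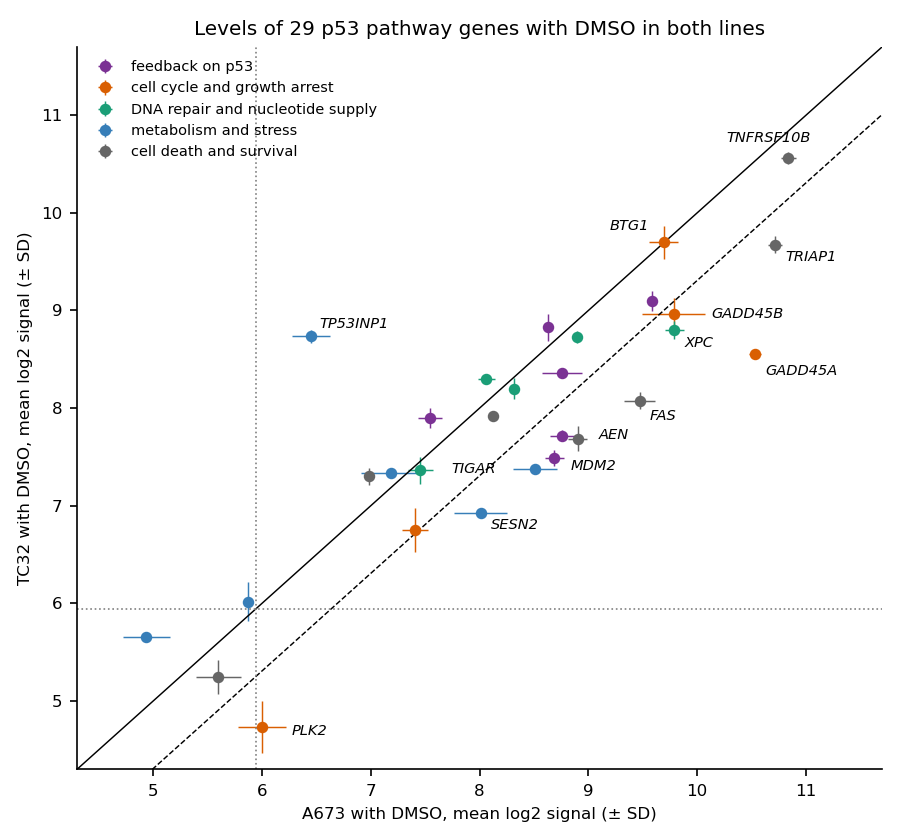
Mean log2 signal with DMSO of the 29 members in TC32 (vertical axis) against A673 (horizontal axis), with the SD of 2 arrays, coloured by role. The solid line marks equal signal, the dashed line the shift of -0.69 between the arrays of the lines, and the dotted lines 5.94. TP53INP1 lies farthest above both lines and GADD45A farthest below them.

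Whether THZ531 acted differently in the lines was tested as the difference of its effect, TC32 minus A673. At 500 nM 2 members differed by limma, PLK2 by 1.76 ± 0.31 and GADD45A by 1.60 ± 0.27 (adjusted p = 6.58e-06 and 3.24e-06), both of which rose further in TC32. None was lower (0, and 1 at an unadjusted p under 0.05), where 0.551% of all tested genes were higher and 1.28% lower. Both calls remained without any one of the 12 arrays and on centred arrays (1.72 and 1.56). Since PLK2 lay under 5.94 in TC32 with DMSO, its rise there is counted only as at least 3.41-fold against 2.34-fold in A673. On centred arrays GADD45B (-0.68) was lower and TRIAP1 (0.66) higher besides, giving 3 higher and 1 lower (3.06% and 6.74% of all tested genes). The as-deposited count of 2 became 10 without replicate 1 of the A673 500 nM arrays, and GADD45B (-0.89) and XPC (-0.75) were lower without replicate 2.

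At 100 nM the effect was more positive in TC32 for 5 members, SESN1 by 1.36 ± 0.30, MDM2 by 1.17 ± 0.29, GADD45A by 1.12 ± 0.27, TIGAR by 1.03 ± 0.29 and FAS by 0.99 ± 0.29 (adjusted p = 0.00283, 0.0132, 0.0101, 0.0318 and 0.0412, limma). None was lower (0, and 0 at an unadjusted p under 0.05). Among all tested genes 2.23% were higher and 0.0886% lower, and their median was 0.41 beside 0.58 for the members. Relative to the array medians, SESN1 (0.94) and GADD45A (0.71) were higher, the only 2 of 26, against 0.866% higher and 1.78% lower among all tested genes. The count of 5 became 19 without either A673 500 nM array and 3 without either TC32 500 nM array. It became 1 without replicate 1 of the TC32 DMSO arrays or replicate 2 of the TC32 100 nM arrays, and 0 without A673 DMSO replicate 1, either A673 100 nM array, TC32 DMSO replicate 2 or TC32 100 nM replicate 1. The SESN1 difference lay between 1.17 and 1.55 over the 12 omissions.

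**Figure D5:**
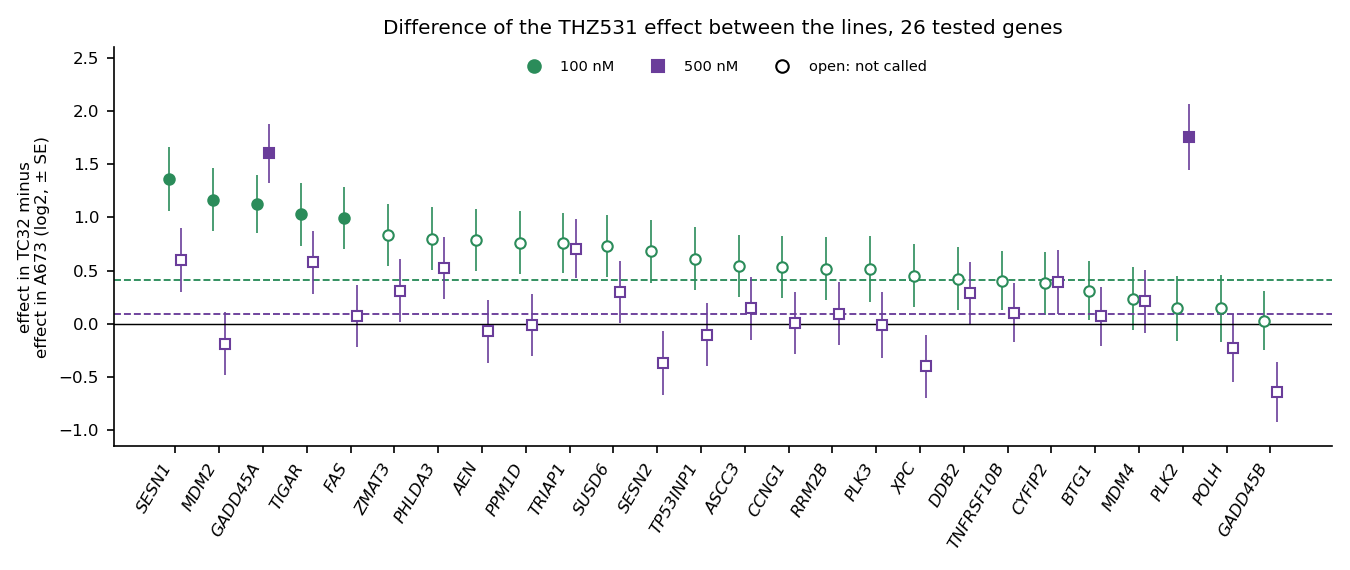
Difference of the THZ531 effect between the lines, TC32 minus A673 (vertical axis, log2, with the SE), for the 26 tested members ordered by their 100 nM value. Circles are 100 nM, squares 500 nM, open symbols did not pass the test, and dashed lines are the medians of all tested genes (0.41 at 100 nM and 0.10 at 500 nM). PLK2 and GADD45A stand apart at 500 nM, with 1.76 and 1.60, and 5 members pass the test at 100 nM.

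Other genes of the pathway were taken from 2 lists compiled for this comparison, 39 regulators of p53 (33 tested) and 59 further p53 targets (44 tested). At 500 nM 20 regulators fell in TC32 and 28 in A673, and 0 rose by limma (1 and 0 at an unadjusted p under 0.05), while 25 and 33 targets fell and 2 and 1 rose. Over all tested genes 62.9% fell in TC32 and 82.5% in A673, and 0.945% rose in each. Medians were -1.07 and -0.87 for the regulators and -0.58 and -0.64 for the targets. In TC32 at 100 nM 6 regulators and 8 targets rose while 5 and 10 fell, where 5.56% of all tested genes rose and 20.9% fell. In A673 at 100 nM 1 and 1 rose while 12 and 25 fell, where 1.32% rose and 58.7% fell. Without replicate 1 of the A673 DMSO arrays 21 targets fell in A673 at 500 nM, and without replicate 2 of the 500 nM arrays 2 rose. Without either A673 500 nM array, 1 regulator rose in TC32 at 500 nM, 12 rose in TC32 at 100 nM, and 24 fell in A673 at 100 nM, where 2 targets rose. Without any one of the 4 TC32 arrays compared, between 1 and 3 regulators rose in TC32 at 100 nM, and 2 and 3 fell without replicate 1 of DMSO and replicate 2 of 100 nM. Of the targets in TC32 at 100 nM, 4 rose without replicate 2 of DMSO, 5 without either 100 nM array, and 6 fell without replicate 2 of 100 nM. In A673 at 100 nM 0 targets rose without any one of the 4 A673 arrays compared, and 15 and 14 fell without replicate 1 of DMSO and replicate 2 of 100 nM. Relative to the array medians 14 regulators and 19 targets were higher and 16 and 11 lower in TC32 at 500 nM, and 10 and 19 were higher and 12 and 13 lower in A673. The shares of all tested genes on that scale were 41.3% higher and 30.7% lower in TC32 and 29.6% and 27.4% in A673.

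The regulators with the largest fitted falls over the lines at 500 nM were TP53RK, a kinase of p53 (-2.73 in TC32, -2.19 in A673), SIRT1, a deacetylase (-2.45, -1.82), ING2, a chromatin reader (-2.25, -1.99), BANP, a nuclear matrix protein (-2.03, -2.18), and KAT5, the acetyltransferase Tip60 (-1.99, -1.89). Among the targets, E2F7, a cell cycle repressor, was at -3.42 and -3.12, PANK1, a pantothenate kinase, at -3.06 and -3.26, and DCP1B, of mRNA decapping, at -2.79 and -2.29. TNFAIP8 (-2.34, -2.65) and PRKAB1, an AMP kinase subunit (-2.61, -1.94), followed. Where the 500 nM mean lay under 5.94, the fitted value is not a bound, and counted from 5.94 the falls were at least 2.23-fold in TC32 and 2.54-fold in A673 for SIRT1, 3.15-fold and 4.58-fold for PANK1, 4.21-fold and 3.995-fold for DCP1B, and 2.84-fold and 2.81-fold for TNFAIP8. In TC32 alone they were at least 6.62-fold for TP53RK, 3.55-fold for ING2, 5.08-fold for E2F7 and 3.53-fold for PRKAB1. The targets that rose at 500 nM were IER5, an immediate-early gene (2.14 and 0.99), and PMAIP1, which encodes the apoptosis activator NOXA, at 0.80 in TC32 and 0.17 in A673, the second not past the test (adjusted p = 0.404, limma).

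ATM, the kinase that activates p53 after double-strand breaks, was singled out after its values were seen. It read 5.45 and 5.43 with DMSO, 7.33 and 7.48 at 100 nM, then 5.78 and 5.95 at 500 nM in TC32, and 6.80 and 7.14, 8.32 and 8.32, and 7.36 and 7.06 in A673. The 100 nM arrays were the highest in both lines. ATM rose by 1.96 ± 0.21 at 100 nM in TC32, at least 2.75-fold, and by 1.35 ± 0.21 in A673 (adjusted p = 2.30e-18 and 3.13e-09, limma), and at 500 nM it was at 0.42 and 0.24, neither past the test (adjusted p = 0.0700 and 0.264). On centred arrays it was higher at 500 nM as well, by 1.22 in TC32 and 1.08 in A673.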

How the data were processed

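RNA from 12 samples was measured on arrays. The authors deposited normalised log2 signals. Their normalisation is not given in the sources used here, and the submitters' processing notes name MAS5, GRCh37 and hg19 without their role. Per the labels, an ERCC spike-in mix was added to total RNA. Whether the arrays were scaled to it is not known. A change in RNA amount and an effect of scaling therefore cannot be told apart in a shift of the array medians. Of 49395 probe sets, 44994 were annotated to 1 gene, and 46566 entries had 3 decimals. In those, the most correlated array came from the same group for 12 of 12 arrays, and in the 2829 entries with 2 decimals for 0 of 12, so these were not used. Of 17029 genes, 92 shared their values with another symbol and were left out. Where a gene had several values, the probe set with the highest mean was taken.

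The 12 arrays entered 1 limma fit (version 3.58.1, R 4.3.3) with a mean for each group and a prior variance that follows the signal. Tests were two-sided, with calls at a Benjamini-Hochberg adjusted p under 0.05 over 10162 genes. Tables were made with Python 3.11.15 and pandas 2.3.3. With 6 residual degrees of freedom, the median residual SD was 0.19 as deposited, with an infinite prior, and 0.12 after centring. With that infinite prior, the as-deposited SEs and p-values rest on the prior variance and not on the spread of the gene itself. Because an array's offset touches many of its genes at once, the adjusted p-values are smaller than 2 arrays a group can warrant. Precision is limited by the number of arrays. The fit was also run on simulated data with independent noise at the centred SD and without array offsets. That run therefore cannot check how offsets affect the as-deposited calls. Folds across the level of 5.94 count from that level as lower bounds. That level is the filter for testing, and a detection limit was not measured.

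Values on every array are given for MDM2, members higher than DMSO in any comparison, the 5 largest mean falls at 500 nM, members whose effect differed between the lines and the 5 largest line differences, and XPC was added. From the lists, up to 5 rises and 5 falls at 500 nM were named. The members, lists and rules were chosen with earlier results of these data known. The replicate numbers were not taken as pairs in the main fit. Deviations of same-numbered arrays from their group means correlated across genes between -0.16 and 0.44 between groups. An offset of a whole array does not change such a correlation, so it cannot decide whether the numbers mark pairs. The median over all kept genes was higher on replicate 1 in every group, and over the tested genes in every group but TC32 at 500 nM. The alternatives were centring, no filter, a constant prior, the replicate number as a block and leaving out each array. Promoters came from RefSeq, matched by symbol for 23 of 29 members.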

Additional observations from a re-analysis of the deposited data

Results flagged for a closer look

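The difference of the THZ531 effect between the lines passed the test in 7 cases, each given as TC32 minus A673 on the log2 scale. At 500 nM these were PLK2 at 1.76 and GADD45A at 1.60. At 100 nM they were SESN1 at 1.36, MDM2 at 1.17, GADD45A at 1.12, TIGAR at 1.03 and FAS at 0.99. The calls at 500 nM remained without any one of the 12 arrays and after centring, with 1.72 for PLK2 and 1.56 for GADD45A. At 100 nM the call was lost without any one of 5 arrays for SESN1, 7 for MDM2, 7 for GADD45A, 10 for TIGAR and 9 for FAS, and after centring for MDM2 (0.75), TIGAR (0.61) and FAS (0.58).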

How the results depend on the processing

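Centring, no filter on low values, a variance prior that does not follow the mean, the replicate number as a block, and leaving out each array were tried. Of 234 differences, 1 per tested member and comparison, centring left 161 unchanged, the constant prior 233, no filter 231 and the replicate block 223. Unchanged means on the same side of the threshold, with the same direction where either setting passed the test. A difference that passed in neither setting counts as unchanged even where its sign turned. MDM4 in the 100 nM difference of effects was such a case (0.23 as deposited, -0.18 centred). Centring changed these counts of members: in TC32 at 500 nM 11 lower and 7 higher, in A673 at 500 nM 13 lower, in TC32 at 100 nM 14 higher, in A673 at 100 nM 7 lower and 8 higher, between the doses 7 higher in TC32 and 5 higher in A673, with DMSO 12 higher in TC32 than in A673, and in the difference of effects 1 lower at 500 nM and 2 higher at 100 nM. It also made 16 regulators lower and 14 higher in TC32 at 500 nM, 12 and 10 in A673, 6 and 19 in TC32 at 100 nM and 6 and 17 in A673, and for the further targets 11 and 19, 13 and 19, 10 and 16, and 9 and 12. Of the differences that passed the test on at least 1 of the scales, signs turned under centring for DDB2 (0.142), ZMAT3 (0.731), RRM2B (0.178) and ASCC3 (0.153) in TC32 at 500 nM, and for ZMAT3 (0.46), RRM2B (0.122), TRIAP1 (0.139), CYFIP2 (0.443) and ASCC3 (0.048) in A673. They also turned for SESN1 (0.051), CCNG1 (0.166), TIGAR (0.024), CYFIP2 (0.115) and SUSD6 (0.352) in A673 at 100 nM, and between the doses in TC32 for BTG1 (0.444), DDB2 (0.576), RRM2B (0.076) and ASCC3 (0.431). Between the lines with DMSO they turned for POLH (0.597), PLK3 (0.035), DDB2 (0.528), CCNG1 (0.198), TNFRSF10B (0.412), ASCC3 (0.578) and SUSD6 (0.492). Centring subtracts 1 value from all genes of an array, so it moves every difference of a comparison by the same amount. The signals themselves did not all shift by that amount. RPL11, among the regulators, averaged 13.49 with DMSO and 13.48 at 500 nM in TC32 as deposited. Relative to the array medians it read 7.015 and 6.963 with DMSO and 7.79 and 7.745 at 500 nM. A gene higher only on centred arrays may thus be level as deposited.

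With the replicate number as a block, 5 members were lower in TC32 at 100 nM and 9 differed between the lines at 100 nM, and it moved no other count of members by over 1.5 times. Without the filter, or with the constant prior, 1 member was higher at 500 nM than at 100 nM in A673. Leaving out each array, the lower and higher members ranged over 16 to 19 and 4 to 4 in TC32 at 500 nM, 20 to 22 and 4 to 4 in A673 at 500 nM, 2 to 6 and 8 to 13 in TC32 at 100 nM, 7 to 19 and 2 to 4 in A673 at 100 nM, 15 to 19 and 2 to 2 between the doses in TC32, and 9 to 18 and 1 to 6 in A673. With DMSO they ranged over 11 to 15 and 1 to 4, and for the difference of effects over 0 to 2 and 2 to 10 at 500 nM and 0 to 0 and 0 to 19 at 100 nM. Regulators ranged over 19 to 24 and 0 to 1 in TC32 at 500 nM, 19 to 32 and 0 to 0 in A673, 2 to 7 and 1 to 12 in TC32 at 100 nM, and 8 to 24 and 1 to 1 in A673. Targets ranged over 20 to 34 and 2 to 2, 21 to 41 and 1 to 2, 6 to 13 and 4 to 9, and 14 to 32 and 0 to 2 in the same order. Where these counts moved, the cause was not tested. The planned comparison by gene span was not run, because the gene table given is of another build than the one in the submitters' notes. Falls to signals under 5.94 are counted as lower bounds.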
